A study of Mus musculus with 4 samples.

Results

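The genes described here are 10 genes of the NF-κB system: the subunit genes Nfkb1, Nfkb2, Rel and Relb, the inhibitor genes Nfkbia, Nfkbid, Nfkbiz and Bcl3, and the ubiquitin regulator genes Tnfaip3 and Birc3. They were taken by symbol from the 32285 gene rows of each single-cell RNA table, and each symbol had 1 row. Hepatic CD4+ T cells were flow sorted from WT mice and from dKO mice (Nr4a1 fl/fl Nr4a2 fl/fl Cd4-Cre, in which the Cd4 promoter drives Cre in the T lineage). All mice were fed CD, a choline-deficient high-fat diet (60 kcal% fat, 0.1% methionine) that models metabolic dysfunction-associated steatohepatitis. Cells of 2 mice per genotype were pooled before capture with a 5′ droplet kit, so each genotype is 1 library and the mice cannot be separated. The labels used here give no ages.

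After filtering, 10556 cells with 23437516 unique molecular identifiers (UMIs, 1 per captured RNA molecule) remained under the WT label and 17462 cells with 37794986 UMIs under the dKO label, with medians of 1679 and 1685 UMIs per cell. Throughout, paired values are given for the library labelled WT first and the library labelled dKO second. The deleted genes were counted first, in CPM (UMIs of a gene summed over the cells of a class and scaled to a fixed total). Nr4a1 was at 1079.7 and 2316 CPM in Foxp3+ T cells and 712 and 1657 CPM in conventional T cells, and Nr4a2 at 185 and 448 CPM and at 214 and 406 CPM. Both deleted genes were higher under the dKO label in these classes, and the counts name the gene of a molecule and not its exon, so they cannot show whether the floxed exons are missing and do not check the labels. Every direction between the libraries given here rests on the labels as given. The libraries shared 242 cell barcodes among the cells kept.

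Cells were put into classes by marker genes, none of which is a member. T cells (at least 2 of 6 T cell markers) were 66.5% and 64% of the cells, although the sort was for CD4+ T cells, and the pDC gate (plasmacytoid dendritic cell genes such as Siglech) took 12.3% and 17.4%. The T cell classes were Foxp3+ cells (regulatory T cells, Tregs; 395 and 2988 cells), cells with at least 2 Treg genes but no Foxp3 UMI (1071 and 4294), Ifng+ cells (1377 and 699), Il17+ cells (127 and 285), cells in both of these gates (25 and 5), Fasl+ or Klrk1+ cells (616 and 350), Cd40lg+ cells (1108 and 405), naive-like cells with at least 2 naive-like markers such as Lef1 and Tcf7 (634 and 441), other T cells (1044 and 1201) and cycling cells (619 and 508). Conventional T cells (4931 and 3386) join the T cell classes other than Foxp3+ cells, cells with Treg genes and cycling cells. Foxp3 was at 667 and 857 CPM in the Foxp3+ class, and Ctla4, which is no part of the Foxp3 gate but helps to keep cells out of the conventional group, at 1368 and 2394 CPM there against 202 and 528 CPM in conventional T cells. The summed level of 7 pDC markers was 23.6 and 27.4 CPM in Foxp3+ cells against 11645 and 10868 CPM in the pDC gate, and that of 8 macrophage markers was 89.5 and 92.8 CPM against 25987 and 24761 CPM in the macrophage gate, with none of these markers at 0 in Foxp3+ cells.

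NF-κB proteins are dimers of Rel family subunits that are held inactive until a signal from the T cell receptor, a co-stimulatory receptor or a cytokine receptor releases them. In the canonical arm an inhibitor such as IκBα (Nfkbia) is degraded, and in the non-canonical arm the precursor encoded by Nfkb2 is processed so that RelB dimers can form. Released dimers switch on genes of activation and survival, and among their targets are the genes of their own inhibitors and of several subunits, which closes a feedback loop. In T cells, c-Rel (Rel) and IκBNS (Nfkbid) are known for their part in Treg development.

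Because the feedback runs through κB sites near gene starts, promoters of members that stand apart in the values below are shown. Of the 10 members, 7 had an entry in the RefSeq promoter table (GRCm38.p6), with 12 start windows, and Nfkb1, Relb and Nfkbiz had none. Each line gives the 250 bases upstream of a start, 5′ to 3′ on the gene's strand, with capitals for every stretch of GGG and CC separated by 5 bases, read on either strand (overlapping stretches run together).
Nfkbia: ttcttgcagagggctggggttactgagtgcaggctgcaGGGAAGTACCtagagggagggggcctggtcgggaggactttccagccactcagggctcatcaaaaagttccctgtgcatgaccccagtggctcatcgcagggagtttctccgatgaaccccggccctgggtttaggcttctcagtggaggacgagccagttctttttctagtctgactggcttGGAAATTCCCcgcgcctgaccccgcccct
Tnfaip3: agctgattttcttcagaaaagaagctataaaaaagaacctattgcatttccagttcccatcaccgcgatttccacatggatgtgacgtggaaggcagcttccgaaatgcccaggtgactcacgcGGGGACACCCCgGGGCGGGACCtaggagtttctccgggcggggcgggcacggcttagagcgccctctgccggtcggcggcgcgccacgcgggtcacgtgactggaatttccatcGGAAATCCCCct
Rel: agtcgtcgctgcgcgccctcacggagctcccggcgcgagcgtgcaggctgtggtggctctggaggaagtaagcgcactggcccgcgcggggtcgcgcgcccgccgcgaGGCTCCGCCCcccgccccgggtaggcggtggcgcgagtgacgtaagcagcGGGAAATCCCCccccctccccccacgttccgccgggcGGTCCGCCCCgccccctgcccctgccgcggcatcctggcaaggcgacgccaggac
Bcl3: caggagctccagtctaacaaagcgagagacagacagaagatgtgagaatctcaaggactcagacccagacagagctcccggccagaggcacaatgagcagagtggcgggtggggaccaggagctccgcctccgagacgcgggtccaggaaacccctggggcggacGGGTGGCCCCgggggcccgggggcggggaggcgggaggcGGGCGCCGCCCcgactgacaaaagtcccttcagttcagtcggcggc
Birc3: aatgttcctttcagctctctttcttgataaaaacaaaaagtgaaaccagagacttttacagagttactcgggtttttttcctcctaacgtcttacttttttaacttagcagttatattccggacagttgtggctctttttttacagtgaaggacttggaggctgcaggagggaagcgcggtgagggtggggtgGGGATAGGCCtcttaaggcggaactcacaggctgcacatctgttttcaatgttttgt
In that order the windows lie at chr12:55492648-55492897, chr10:19015411-19015660, chr11:23770970-23771219, chr7:19822756-19823005 and chr9:7873171-7873420, all on the minus strand. The loose motif was found in all 12 windows, and in 45.8% of the 32851 windows of the table. The stricter κB consensus was found in 7 windows of 5 members (Nfkbia, Nfkbid, Nfkb2, Rel and Tnfaip3), against 7.25% of all windows. The windows printed for Bcl3 and Birc3 did not hold it. In the Nfkbia window it lay 29 to 20 bases upstream of the start, and in the Tnfaip3 window at 12 to 3 and at 125 to 116 bases. TGACTCA, the letters of an AP-1 site, was found in the Tnfaip3 window printed and in 4.46% of all windows. A match describes letters and does not show binding.

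Under the WT label most members were highest in Foxp3+ cells and, among T cells, lowest in naive-like cells. Over the 11 classes with at least 50 cells in each library (the 9 T cell classes, the pDC gate and the macrophage gate), Foxp3+ cells had the highest level of 8 members under the WT label and of 3 (Nfkbia, Bcl3 and Birc3) under the dKO label, beside 10.7% and 10.2% of all genes, and were among the highest 3 classes for 9 and 8, beside 34.9% and 35.9%. The interval of Foxp3+ cells was clear of the next class for Rel, Nfkbia, Nfkbiz and Birc3 under the WT label and for Nfkbia under the dKO label. No share of all genes is given for this rule, so it describes these members only. Among the T cell classes, naive-like cells were lowest for 9 and 6 members, beside 31.6% and 27.5% of genes. The distance from the lowest to the highest class ran from 2.01-fold (Relb) to 5.85-fold (Tnfaip3) under the WT label, and from 1.5-fold (Birc3) to 6.2-fold (Tnfaip3) under the dKO label. Values in brackets after a level are exact 95% Poisson intervals, which cover counting error only. Cells varied more than Poisson counts, so these intervals are too narrow for the spread between cells. Over Foxp3+ cells thinned to 1000 UMIs, the variance over the mean was 3.08 and 3.25 for Nfkbia. Under the WT label it was 1.99 for Rel, 1.37 for Nfkbiz and 1.44 for Birc3. Some clear steps were small, as for Nfkbia under the dKO label, from 1971.3 CPM to 1969.5 CPM in Ifng+ cells. Levels are compared between classes within a gene.

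**Figure D1:**
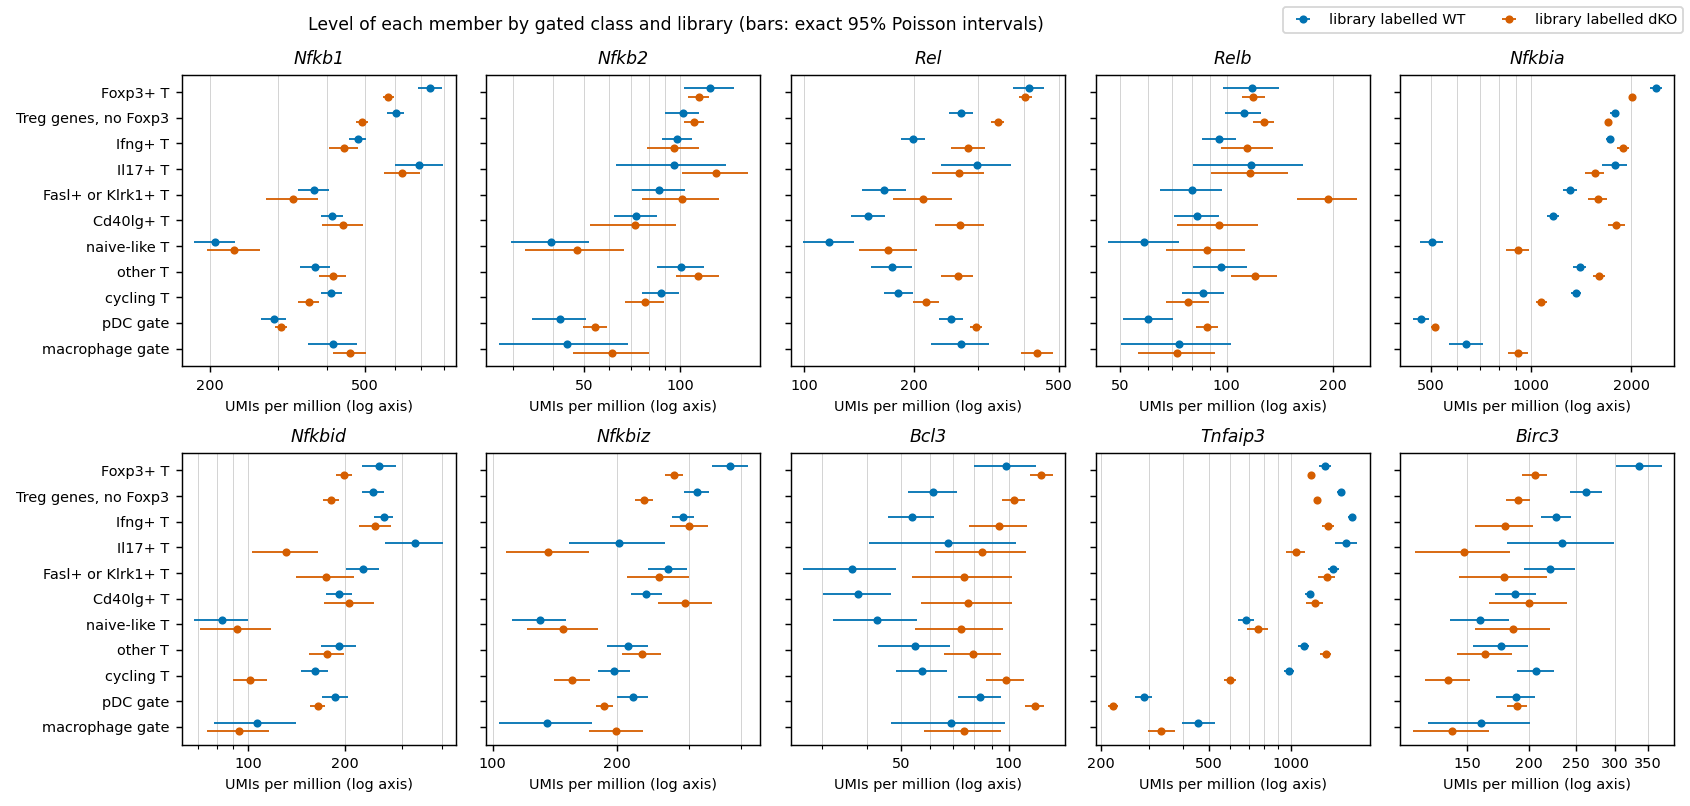
Level of each of the 10 members in CPM (log axis) in 11 gated classes, for the libraries labelled WT and dKO, with exact 95% Poisson intervals as bars. Foxp3+ cells carry the highest level of 8 members under the WT label, and Nfkbia and Tnfaip3 are lowest in the pDC gate in both libraries.

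Nfkb1 (ENSMUSG00000028163, chr3:135584655-135691547, minus strand, GRCm38 as all positions here) encodes the precursor of the subunit that pairs with RelA or c-Rel. It was at 737 CPM (686 to 792) and 575 CPM (556 to 595) in Foxp3+ cells and at 692 CPM (598 to 796) and 625 CPM (561 to 695) in Il17+ cells, and the intervals of these classes overlapped in both libraries. Naive-like cells were lowest at 206 CPM (182 to 232) and 231 CPM (196 to 269). The Foxp3+ and Il17+ classes thus stood at the top of a graded order, in which 7 and 8 of the 10 pairs of neighbouring classes had overlapping intervals. Nfkb1 overlaps Gm43430 on the same strand, and how reads in the overlap were assigned was not checked.

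Rel (ENSMUSG00000020275, chr11:23736847-23770970, minus strand), the gene of c-Rel, was at 414 CPM (375 to 455) in Foxp3+ cells under the WT label, clear of the next class, Il17+ cells at 298 CPM (238 to 369). Under the dKO label Foxp3+ cells were at 404 CPM (388 to 421) and the macrophage gate at 435 CPM (393 to 481), with overlapping intervals. Naive-like cells were lowest, at 117 CPM (99.4 to 137) and 170.1 CPM (141 to 204). Rel was also above conventional T cells in the pDC gate, at 253 CPM (234 to 273) and 296 CPM (284 to 307), so its order was not that of the other subunits.

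The genes of the non-canonical arm had few UMIs, 126 and 659 for Nfkb2 and 120 and 686 for Relb in Foxp3+ cells. Nfkb2 (ENSMUSG00000025225, chr19:46304320-46312385, plus strand) was at 124 CPM (103 to 148) and 114 CPM (106 to 123) in Foxp3+ cells and at 39.6 CPM (29.5 to 51.9) and 47.6 CPM (32.8 to 66.8) in naive-like cells. Relb (ENSMUSG00000002983, chr7:19606217-19629438, minus strand) was at 118 CPM (97.8 to 141) and 119 CPM (110.3 to 128) in Foxp3+ cells and at 58.6 CPM (46.2 to 73.2) and 88 CPM (67.3 to 113) in naive-like cells. Every neighbouring pair overlapped for Nfkb2, so only distant classes can be told apart at this depth. For Relb 1 class stood clear of all others, the Fasl+ or Klrk1+ cells under the dKO label at 193 CPM (158 to 234), while the same class was at 79.6 CPM (64.9 to 96.8) under the WT label. These rest on 101 Relb UMIs under the WT label and 103 under the dKO label. Nfkb2 overlaps AC114539.1 and Psd on the other strand.

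Among the inhibitors, Nfkbia (ENSMUSG00000021025, chr12:55489410-55492647, minus strand) was highest in Foxp3+ cells in both libraries, at 2377 CPM (2283 to 2473) and 2008 CPM (1971 to 2045). Ifng+ cells were at 1726 CPM (1682 to 1770.2) and 1891 CPM (1814 to 1969). Naive-like cells were at 503 CPM (465 to 543) and 913 CPM (843 to 987) and the pDC gate was lowest, at 468 CPM (441 to 495) and 514 CPM (499.7 to 529). The gene was the member with the most molecules in Foxp3+ cells, and its order had clear steps, with 5 and 5 of 10 neighbouring pairs overlapping.

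Nfkbid (ENSMUSG00000036931, chr7:30421732-30428746, plus strand) encodes IκBNS, an atypical IκB protein that acts in the nucleus. Its highest class under the WT label was Il17+ cells at 329.9 CPM (266 to 404), whose interval overlapped that of Ifng+ cells at 264 CPM (247 to 282). Under the dKO label Il17+ cells were at 131 CPM (103 to 165), below Ifng+ cells at 249 CPM (222 to 278). The Il17+ values rest on 93 and 73 UMIs. Foxp3+ cells were at 256 CPM (226 to 289) and 199 CPM (188 to 211), and naive-like cells lowest at 82.9 CPM (68.1 to 100.01) and 92.3 CPM (71.1 to 118).

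Nfkbiz (ENSMUSG00000035356, chr16:55811375-55838899, minus strand), the gene of the nuclear protein IκBζ, was at 377 CPM (339.8 to 416) in Foxp3+ cells under the WT label, above all the other classes without overlap. Under the dKO label Foxp3+ cells were at 275 CPM (262 to 289), and Ifng+ cells at 299.8 CPM (269.8 to 332) and Cd40lg+ cells at 294 CPM (252 to 340.0) were as high within their intervals. Bcl3 (ENSMUSG00000053175, chr7:19808462-19822770, minus strand), the gene of a nuclear IκB protein that can act as a coactivator, was at 98.3 CPM (80.00 to 119.6) and 124 CPM (115 to 133) in Foxp3+ cells, followed by the pDC gate at 83.1 CPM (72.2 to 95.2) and 119 CPM (112 to 126). Every neighbouring pair overlapped for Bcl3. It overlaps Gm16175 and Gm16174 on the other strand.

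Tnfaip3 (ENSMUSG00000019850, chr10:19000910-19015657, minus strand) encodes A20, a ubiquitin-editing enzyme that restrains NF-κB signalling. Its highest value was in Ifng+ cells, at 1678 CPM (1635 to 1722) and 1374 CPM (1309 to 1442). These intervals overlapped those of Il17+ cells at 1607 CPM (1462 to 1762) under the WT label, and of Fasl+ or Klrk1+ cells at 1360.4 CPM (1263 to 1463) and other T cells at 1348 CPM (1289 to 1408) under the dKO label. Foxp3+ cells were at 1340.2 CPM (1270.0 to 1413) and 1185 CPM (1157 to 1214). Naive-like cells were at 685 CPM (641 to 732) and 756 CPM (692 to 823). The macrophage gate at 457 CPM (397 to 524) and 334 CPM (297 to 374) and the pDC gate at 287 CPM (267 to 309) and 222 CPM (212 to 232) lay below every T cell class. Birc3 (ENSMUSG00000032000, chr9:7848699-7873186, minus strand), the gene of the ubiquitin ligase cIAP2, was at 336 CPM (302 to 374) in Foxp3+ cells under the WT label, above all the other classes without overlap, and at 206 CPM (194 to 218) under the dKO label, where every neighbouring pair overlapped.

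Foxp3+ cells were compared with conventional T cells within each library. The conventional group leaves out cells with Treg genes but no Foxp3 UMI, so the contrast cannot separate Foxp3 from other Treg genes. Those cells had Rel at 269 and 340 CPM and Bcl3 at 61.5 and 104 CPM. In conventional T cells Rel was at 173 and 251 CPM and Bcl3 at 46.9 and 81.7 CPM. Nfkbiz went the other way under the dKO label, at 232.5 CPM against 235.6 CPM. Under the WT label 6 of 10 members were at least 1.5-fold higher in Foxp3+ cells, beside 9.04% of the 6082 genes with a mean of at least 20 CPM. As log2 ratios with exact 95% intervals, they were Rel at 1.25 (1.10 to 1.41), Bcl3 at 1.07 (0.74 to 1.38), Nfkb1 at 0.85 (0.74 to 0.96), Nfkbia at 0.82 (0.76 to 0.89), Birc3 at 0.73 (0.56 to 0.90) and Nfkbiz at 0.65 (0.49 to 0.81). Under the dKO label the 2 members past that fold were Rel at 0.69 (0.59 to 0.79) and Bcl3 at 0.60 (0.42 to 0.77), beside 10.8% of genes. The same 2 passed in both libraries, beside 5.37% of genes. No member was 1.5-fold lower, beside 4.13% and 5.06% of genes. The members' median log2 ratio was 0.69 and 0.25, against 0.05 and 0.11 over all genes.

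Under the dKO label the other 4 of those members were within the fold, with Nfkb1 at 0.48 (0.40 to 0.56), Nfkbia at 0.33 (0.29 to 0.37), Birc3 at 0.24 (0.11 to 0.37) and Nfkbiz at 0.23 (0.12 to 0.33). The remaining members were within the fold in both libraries. Tnfaip3 was at 0.02 (−0.06 to 0.10) and −0.05 (−0.10 to 0.00), and its ratio under the WT label ran from −0.09 with TMM scaling to 0.38 with a wider gate (Foxp3 or at least 2 Treg genes). Relb was at 0.44 (0.15 to 0.72) and 0.00 (−0.16 to 0.16). Nfkb2 was at 0.57 (0.29 to 0.84) and 0.26 (0.09 to 0.43) and Nfkbid at 0.27 (0.08 to 0.46) and 0.14 (0.01 to 0.27). TMM scaling takes 0.11 off each ratio in both libraries, and a total without receptor, mitochondrial and ribosomal genes takes off 0.08 and 0.12, and under either no member passed 1.5-fold under the dKO label. With 1 library per genotype no test was made here or elsewhere.

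**Figure D2:**
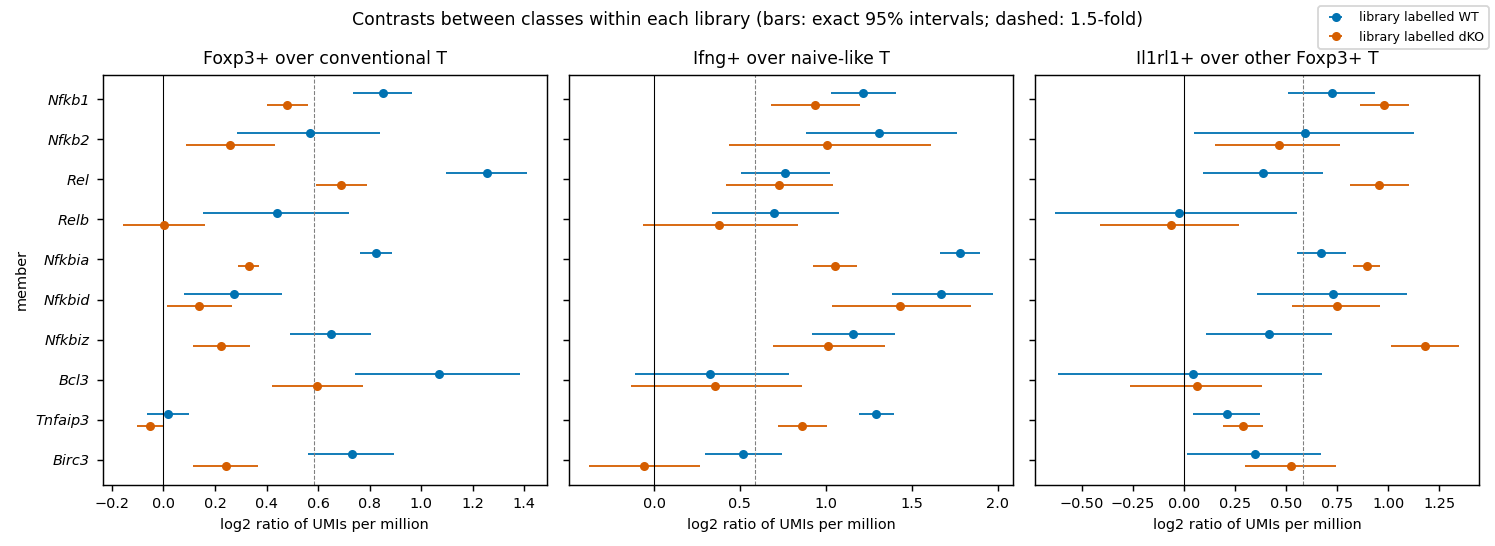
log2 ratios of CPM for the 10 members within the libraries labelled WT and dKO, with exact 95% intervals as bars and dashed lines at 1.5-fold; the panels compare Foxp3+ with conventional, Ifng+ with naive-like, and Il1rl1+ with other Foxp3+ T cells. Tnfaip3 lies at 0.02 and −0.05 in the Foxp3+ panel and at 1.29 and 0.86 in the Ifng+ panel.

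Set against naive-like cells, Foxp3+ cells were at least 1.5-fold higher for 10 of 10 members under the WT label and for 8 under the dKO label, beside 23.7% and 25.7% of genes, and these 8 passed in both, beside 15.3%. None was 1.5-fold lower, beside 7.6% and 9.44% of genes. Nfkbia had log2 ratios of 2.24 (2.12 to 2.37) and 1.14 (1.02 to 1.26), and Nfkb1 of 1.84 (1.64 to 2.04) and 1.32 (1.09 to 1.56). The members within the fold under the dKO label were Relb at 0.44 (0.06 to 0.84) and Birc3 at 0.15 (−0.12 to 0.42). Ribosomal genes held a median of 18.7% and 17.2% of the UMIs of Foxp3+ cells and 32.8% and 32.3% of those of naive-like cells. No scaling alternative was run for this comparison, so how far its counts depend on scaling was not tested.

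Ifng+ cells, which carry the cytokine of type 1 helper cells, were at least 1.5-fold above naive-like cells for 8 and 7 members, beside 19.6% and 20.2% of genes, and for 7 in both libraries, beside 11.3%. None was 1.5-fold lower, beside 5.41% and 8.38%. Nfkbid had ratios of 1.67 (1.38 to 1.97) and 1.43 (1.04 to 1.84), Nfkbia of 1.78 (1.66 to 1.90) and 1.05 (0.92 to 1.18) and Tnfaip3 of 1.29 (1.19 to 1.4) and 0.86 (0.72 to 1.01). Bcl3, at 0.33 (−0.11 to 0.79) and 0.35 (−0.14 to 0.86), could not be told apart between these classes at this depth. TMM scaling takes 0.16 and 0.14 off these ratios, and the smaller total 0.24 and 0.23. Cd40lg+ cells, which carry the ligand that activates antigen-presenting cells, passed 1.5-fold for 6 and 7 members, beside 10.2% and 13.6% of genes, and for 6 in both, beside 5.43%, with none lower, beside 2.99% and 8.56%. Nfkbid was at 1.21 (0.91 to 1.53) and 1.16 (0.72 to 1.62) there. Nfkb1, Nfkb2, Nfkbia, Nfkbid, Nfkbiz and Tnfaip3 were thus past the fold in both libraries in both of these classes. For Nfkb2 in Cd40lg+ cells under the dKO label this rests on 44 UMIs, and 33 in naive-like cells. Its levels, 72.2 CPM (52.5 to 96.9) and 47.6 CPM (32.8 to 66.8), had overlapping intervals. No scaling alternative was run for Cd40lg+ cells. Both comparisons share the naive-like cells of each library, so they are not independent. No share of all genes is given for passing in all of them.

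Within Foxp3+ cells, cells with a UMI of a subset gene were compared with the rest, a split added after the levels by class had been seen. Il1rl1, the gene of the IL-33 receptor that marks tissue Tregs, was detected in 93 and 285 cells. These were at least 1.5-fold higher for 4 and 5 members, beside 10.8% and 3.66% of genes, with none lower, beside 11% and 5.89%. Nfkb1, Nfkbia and Nfkbid passed in both libraries, beside 0.949% of genes. Nfkb1 had log2 ratios of 0.73 (0.51 to 0.94) and 0.98 (0.86 to 1.10), Nfkbia of 0.67 (0.56 to 0.79) and 0.89 (0.83 to 0.96) and Nfkbid of 0.73 (0.36 to 1.09) and 0.75 (0.53 to 0.96). In level, Il1rl1+ cells were at 1017 CPM (908 to 1136) and 1013 CPM (941 to 1089) of Nfkb1 and 3211 CPM (3014 to 3417) and 3369 CPM (3236 to 3505) of Nfkbia.

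The fourth member past 1.5-fold under the WT label was Nfkb2, at 0.59 (0.05 to 1.13), against 0.46 (0.15 to 0.76) under the dKO label. Nfkbiz was at 0.42 (0.11 to 0.72) and 1.18 (1.01 to 1.35) and Rel at 0.39 (0.09 to 0.68) and 0.96 (0.81 to 1.10), both past the fold under the dKO label. Birc3 was at 0.35 (0.02 to 0.67) and 0.52 (0.30 to 0.74) and Tnfaip3 at 0.21 (0.05 to 0.38) and 0.29 (0.19 to 0.39). Relb was at −0.02 (−0.63 to 0.56) and −0.06 (−0.41 to 0.27) and Bcl3 at 0.04 (−0.62 to 0.68) and 0.07 (−0.27 to 0.38), so neither could be told apart from no difference within these intervals. Il1rl1+ cells had medians of 2765 and 2259 UMIs against 2051 and 1570 for all Foxp3+ cells. With T cells that have a TRB contig, or with 1 cell per clonotype, which leave 44 and 42 Il1rl1+ cells under the WT label, the count there was 1.

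The further subsets were compared with the other Foxp3+ cells in the same way. Klrg1+ Foxp3+ cells (121 and 1250), which carry a receptor of differentiated Tregs, passed 1.5-fold for 2 members under the WT label (Nfkb2 and Nfkbia) and 0 under the dKO label, beside 8.84% and 1.08% of genes, with none lower, beside 11.4% and 1.26%. Nfkbia was at 0.68 (0.56 to 0.80) and 0.25 (0.20 to 0.30). Il10+ Foxp3+ cells (29 and 635), which carry a suppressive cytokine, passed for 5 and 0 members, beside 22.3% and 1.18%, with none lower, beside 17.9% and 1.1%. Foxp3+ cells with at least 2 naive-like markers (82 and 155) were 1.5-fold lower for 1 member (Nfkb2) and 0, beside 12.6% and 8.39%, and higher for none, beside 11.6% and 6.67%. Nfkbia was at −0.43 (−0.56 to −0.29) and −0.24 (−0.34 to −0.15) in them.

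Outside the T lineage, the counts of members past 1.5-fold were near the share of all genes in the pDC gate, and the sizes are given as values. In that gate, Tnfaip3, Nfkbia and Nfkb2 were at least 1.5-fold lower than in conventional T cells in each library, beside 26.1% and 22.7% of genes, and beside 19.1% in both. Tnfaip3 was at −2.20 (−2.31 to −2.10) and −2.47 (−2.54 to −2.40), Nfkbia at −1.52 (−1.61 to −1.44) and −1.63 (−1.69 to −1.58) and Nfkb2 at −0.99 (−1.29 to −0.69) and −0.82 (−1.0 to −0.63). Bcl3 was at 0.83 (0.58 to 1.06) and 0.54 (0.37 to 0.70), past 1.5-fold under the WT label, where it was the 1 such member (beside 22% and 22.6% of genes higher), and Rel at 0.54 (0.41 to 0.68) and 0.24 (0.14 to 0.33). The summed level of the 6 T cell markers was 184 and 94.6 CPM in the pDC gate against 3397 and 3986 CPM in conventional T cells, and its median depth differed between the libraries, 1357 and 2887 UMIs.

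In the macrophage gate 5 members in each library were at least 1.5-fold lower than in conventional T cells, beside 31% and 30% of genes, and 4 of them in both (Tnfaip3, Nfkbia, Nfkbid and Nfkb2), beside 22.3%. Tnfaip3 was at −1.53 (−1.74 to −1.33) and −1.88 (−2.05 to −1.71). Rel was the 1 member higher, at 0.63 (0.35 to 0.90) and 0.80 (0.63 to 0.96), beside 21.3% and 22.5% of genes, and beside 17.2% in both. Cycling T cells passed for no member under the WT label (beside 15.4% higher and 7.15% lower). Under the dKO label 4 were lower (Tnfaip3, Nfkbid, Relb and Nfkbiz) and none higher, beside 12.9% and 18.3%, with Tnfaip3 at −1.04 (−1.12 to −0.96). The mature dendritic cell gate held only 7 and 11 cells, with 14 and 32 Relb UMIs, or 1066 CPM (583 to 1789) and 782 CPM (535 to 1104).

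The libraries were then compared within each class, as dKO over WT. Bcl3 was higher under the dKO label in 11 of 11 classes, with a median log2 ratio of 0.75 (from 0.12 to 1.05), an interval above 0 in 9 and at least 1.5-fold in 6. Of all genes tested, 4.38% were higher in every class and 4.4% lower. Rel was higher in 9 of 11, each with an interval above 0. In at least 9 classes 2 of 10 members were higher, beside 18.3% of genes, so that count is near the background. In conventional T cells Bcl3 was at 46.9 CPM (42.7 to 51.3) and 81.7 CPM (74.1 to 89.97), a ratio of 0.80 (0.61 to 1.0), and Rel at 173 CPM (165 to 182) and 251 CPM (237 to 265), a ratio of 0.53 (0.43 to 0.64). Bcl3 was the 1 member past 1.5-fold there, beside 3.44% of genes higher and 4.08% lower.

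Tnfaip3 was lower under the dKO label in 8 of 11 classes, with an interval below 0 in 7, Birc3 in 8, with an interval below 0 in 5, and Nfkbid in 9, with an interval below 0 in 6. These 3 of 10 members stand beside 30.1% of genes lower in at least 8 classes, so the count is that of the background. In Foxp3+ cells Birc3 was the 1 member past 1.5-fold, at −0.71 (−0.88 to −0.53), beside 9.1% of genes lower and 9.07% higher. Nfkbiz was at −0.45 (−0.61 to −0.29), Nfkbid at −0.36 (−0.56 to −0.16), Nfkb1 at −0.36 (−0.47 to −0.24) and Rel at −0.03 (−0.18 to 0.12). The members' median was −0.21 in Foxp3+ cells, against 0.02 over all genes, and 0.10 in conventional T cells, against −0.03. Over all alternatives Birc3 in Foxp3+ cells ran from −0.74 to −0.49, and was within 1.5-fold with a TRB contig, with 1 cell per clonotype and with the wider Treg gate. Bcl3 in Foxp3+ cells, 0.33 (0.03 to 0.65), ran from −0.04 to 0.69, and Rel in Foxp3+ cells from −0.17 to 0.36.

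Nfkbia had opposite signs in the main groups, with −0.24 (−0.31 to −0.18) in Foxp3+ cells and 0.25 (0.21 to 0.29) in conventional T cells. Its highest ratio was in naive-like cells, at 0.86 (0.70 to 1.02), followed by Cd40lg+ cells at 0.63 (0.53 to 0.73). Naive-like cells had 3 members at least 1.5-fold higher (Bcl3, Nfkbia and Relb; beside 7.86% of genes higher and 7.7% lower), and Cd40lg+ cells also 3 (Bcl3, Rel and Nfkbia; beside 6.14% and 9.2%). Fasl+ or Klrk1+ cells had Bcl3 and Relb higher (beside 6.34% and 14%), with Relb at 1.28 (0.87 to 1.69). A single member was higher in Ifng+ cells (Bcl3; beside 5.56% and 9.09%), cells with Treg genes (Bcl3; beside 9.58% and 8.43%), other T cells (Rel; beside 8.25% and 4.8%) and the macrophage gate (Rel; beside 11.6% and 12.7%).

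Il17+ cells had Nfkbid, Tnfaip3 and Birc3 lower under the dKO label (beside 15.9% of genes lower and 12.5% higher), with Nfkbid at −1.33 (−1.79 to −0.87). Cycling cells had the same 3 members lower and Bcl3 higher (beside 10.5% and 4.83%), with Tnfaip3 at −0.72 (−0.81 to −0.63). No member passed in the pDC gate (beside 3.32% and 4.13%). Foxp3+ cells were 3.74% and 17.1% of the cells kept, and the part of this difference in the members' values was not tested. Genotype, mice, preparation and sequencing cannot be told apart.

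**Figure D3:**
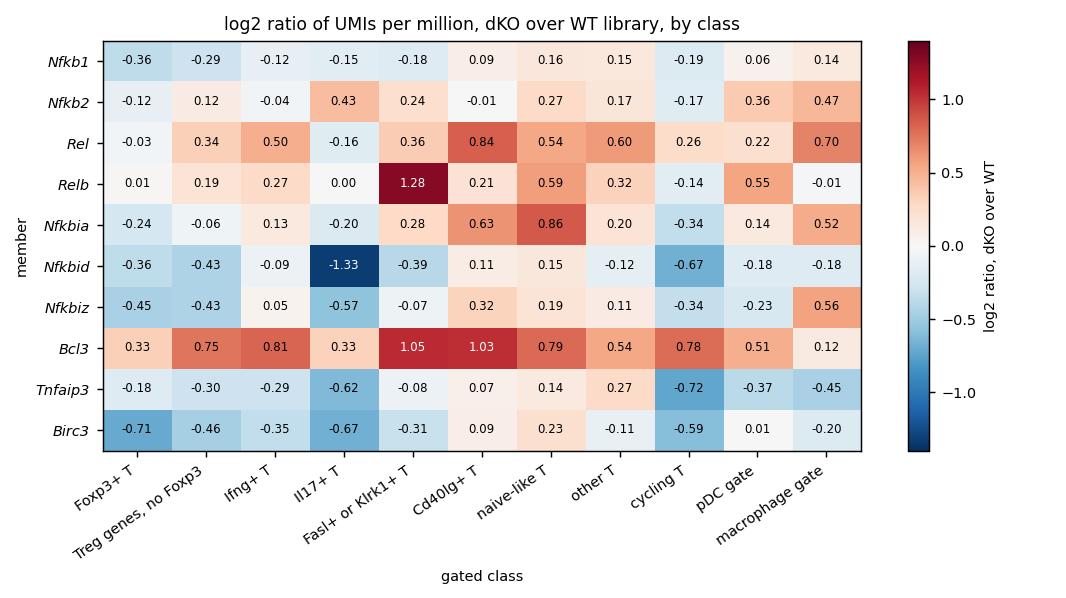
log2 ratio of CPM, library labelled dKO over library labelled WT, for the 10 members (rows) in 11 gated classes (columns), with the value written in each cell. The Bcl3 row is above 0 in all 11 classes and the Nfkbid row is below 0 in 9.

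In single cells each member was seen in a part of the cells. For these shares every cell was thinned to 1000 UMIs and cells below that depth were set aside (43 and 495 Foxp3+ cells, 652 and 716 conventional T cells). A Foxp3+ cell then held a UMI of 3.09 and 2.78 of the 10 members on average, a conventional T cell of 2.2 and 2.38, a naive-like cell of 1.43 and 1.84, a cell of the pDC gate of 1.61 and 1.66 and an Il1rl1+ Foxp3+ cell of 3.83 and 4.02. None of the 10 was found in 6.25% and 6.38% of Foxp3+ cells and in 25% and 15.3% of naive-like cells.

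Nfkbia was detected in 72.7% (67.8 to 77.3) and 65.1% (63.2 to 67) of thinned Foxp3+ cells (84.3% and 72.8% without thinning), and in 30.1% (26.4 to 33.9) and 44% (39 to 49.1) of naive-like cells (45% and 50.8%). Tnfaip3 was detected in 64.8% (59.5 to 69.8) and 63.1% (61.1 to 65) of Foxp3+ cells (77% and 77.7%), and in 22.7% (20.01 to 25.6) and 17% (15.7 to 18.4) of the pDC gate (31% and 37.8%). Intervals are Clopper-Pearson. No class here is known to lack these genes, so no share gives a background level of free RNA.

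The members were then compared with each other across the 22 points of 11 classes in both libraries. Pearson's r of log2(CPM + 10) over the 45 pairs had a median of 0.49, from −0.27 (Bcl3 with Tnfaip3) to 0.90 (Nfkb2 with Nfkbia), with 20 pairs above 0.5 and 4 below 0. Nfkbia and Tnfaip3 were at 0.86, Nfkbid and Nfkbiz at 0.80, and Rel and Bcl3 at 0.76, while Rel was at −0.11 with Tnfaip3. Over the 18 points of the T cell classes alone the median was 0.61. Rel with Tnfaip3 was then at 0.43, so its sign turned without the pDC and macrophage gates. Bcl3 was then at 0.01 with Nfkbid, −0.05 with Tnfaip3 and −0.04 with Birc3. The points share libraries and depth, and these values are a description.

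**Figure D4:**
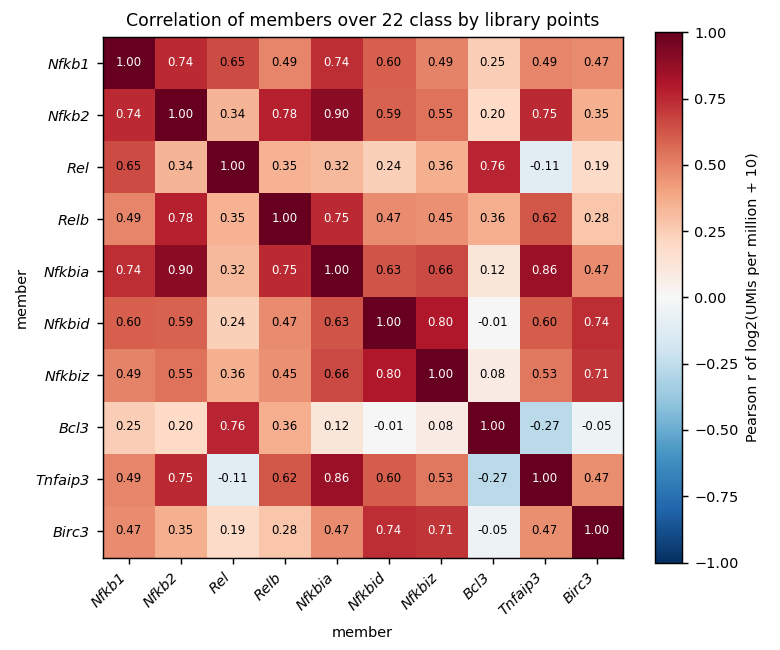
Pearson's r of log2(CPM + 10) between the 10 members over 22 points (11 classes in both libraries). Nfkb2, Nfkbia and Tnfaip3 form a group with values from 0.75 to 0.90, and Bcl3 lies below 0 with Tnfaip3, Birc3 and Nfkbid.

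Of 6330 genes with at least 20 CPM over all cells, those with the pattern most like a member over the 22 points were named by r. For Nfkbia they were Cish (0.94), Traf1 (0.94) and Jak2 (0.93), of which Cish restrains cytokine signals and Traf1 is a signalling adaptor. For Tnfaip3 they included Ppp1r12a (0.98) and Ptpn22 (0.96), of which Ptpn22 is a phosphatase that restrains T cell receptor signals. For Nfkb2 they were Pdcd1 (0.91), Nfkbia (0.90) and Ttc39c (0.90), of which Pdcd1 encodes PD-1. For Rel they were Nfkbie (0.85), Glmp (0.85) and Ubl3 (0.84), of which Nfkbie encodes a further IκB protein. The genes most like Nfkb1 were Cpd (0.88), Fam129a (0.86) and Cdk6 (0.86), those most like Relb Arf4 (0.85), Pim1 (0.81) and Nrbp1 (0.80), and those most like Bcl3 Spcs1 (0.86), Fis1 (0.81) and Sdc4 (0.81). Nfkbid was most like Ptger4 (0.82), Samsn1 (0.82) and Dennd4a (0.82), Nfkbiz like Dennd4a (0.81), Khnyn (0.80) and Kat6a (0.80), and Birc3 like Dock8 (0.84), Ago2 (0.82) and Frs2 (0.82).

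The other genes of the pathway were counted in 5 lists with 45 genes: 4 other subunits and inhibitors, 8 kinases, 4 adaptors from the T cell receptor, 16 TRAF and ubiquitin regulators and 13 target genes. For Foxp3+ over conventional T cells, 7 of 41 tested genes were at least 1.5-fold higher and 3 lower under the WT label, and 7 of 40 higher and 5 lower under the dKO label. All genes stood at 9.04% higher and 4.13% lower, and at 10.8% higher and 5.06% lower. Target genes were 5 of those higher in each library, and 3 and 2 of those lower. The lists' medians were 0.27 and 0.13, against 0.05 and 0.11 over all genes. For Il1rl1+ over other Foxp3+ cells, 5 of 40 were higher and 8 lower (1 of these at 0 UMIs), beside 10.8% and 11% of all genes, and 3 of 41 higher and 4 lower, beside 3.66% and 5.89%.

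Between the libraries, 4 of 39 tested list genes were at least 1.5-fold higher and 7 lower under the dKO label in Foxp3+ cells, beside 9.07% and 9.1% of all genes, and 4 of 41 higher and 1 lower in conventional T cells, beside 3.44% and 4.08%. The target genes Ccl4, a chemokine, and Tnfrsf9, the co-stimulatory receptor 4-1BB, were higher in both groups, at 2.73 (2.34 to 3.14) and 1.10 (0.98 to 1.23) in Foxp3+ cells and at 2.11 (2.01 to 2.22) and 1.85 (1.70 to 2.0) in conventional T cells. Traf3, an adaptor that restrains the non-canonical arm, was at 0.71 (0.45 to 0.97) in Foxp3+ cells, and the chemokine gene Ccl3 at 0.63 (0.09 to 1.23) in Foxp3+ cells and 2.29 (2.05 to 2.53) in conventional T cells. Among those lower in Foxp3+ cells were Prkcq at −1.63 (−1.90 to −1.36), which links the T cell receptor to NF-κB, and Map3k14 at −1.39 (−1.77 to −1.0), the kinase of the non-canonical arm. Of the target genes, 3 were higher and 2 lower in Foxp3+ cells. The lower ones, named after their values were seen, were Cd83, a surface protein of activated cells, at −0.91 (−1.09 to −0.74), and the cytokine gene Tnf at −0.63 (−1.10 to −0.13). In conventional T cells Cd83 was at 1.29 (1.03 to 1.56), past the fold in the opposite direction, and Tnf at −0.57 (−0.77 to −0.38). Il2 was lower in conventional T cells, at −0.60 (−0.89 to −0.31). Of 9 immediate early genes, which respond to activation or to cell handling, none was higher and 4 lower in Foxp3+ cells (median −0.48), and 1 was higher and 1 lower in conventional T cells (median −0.04), and their part in the members' values was not tested.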

How the data were processed

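Per the file headers, the authors made raw UMI counts with Cell Ranger 7.0.1, and per the labels on mm10, for droplets called as cells. They are not normalized. The deposited receptor tables give clonotypes and UMI counts per contig. No cell has under 500 UMIs.

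Cells with over 200 genes and under 5% mitochondrial counts were kept (46 and 183 left out). T cells have at least 2 of 6 T markers and under 3 of each other lineage. Other lineages need at least 3. Cells with 2 lineages were set aside (542 and 1305), as were ungated cells (1420 and 1578). No doublet caller was run. T cells with at least 2 TRB chains (145 and 76) were removed in an alternative. Genes with a mean of at least 20 CPM were held against a 1.5-fold limit. CPM, log2 ratios (exact conditional binomial intervals), percent of cells, TMM (edgeR 4.0.16, R 4.3.3) and correlations were computed here with Python 3.11.15, numpy 2.4.6, scipy 1.17.1 and pandas 2.3.3. Members, lists and gates were chosen with earlier results of these data known. Named genes are all members, the list genes past the limit in dKO over WT with the 3 largest differences in each direction, the 3 genes most like each member, and the deleted genes with gate markers as checks. Some genes that this rule names are not reported here. Positions are from GENCODE M21 on GRCm38. A single library per genotype permits no test, and intervals at 95% cover counting error only.

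In simulated data for dKO over WT, the signs of 200 of 200 changed genes were recovered in Foxp3+ cells (6139 genes) and in conventional T cells (5891 genes), and intervals held the true ratio for 98.5% and 92% of them. Of the unchanged genes, 2.10% and 0.0175% passed the 1.5-fold limit. The intervals cover counting error only, and the real cells varied more than Poisson counts. These shares therefore do not show how well the intervals hold for the real cells.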

Additional observations from a re-analysis of the deposited data

Results flagged for a closer look

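Nfkbia differed between the libraries in opposite directions in the main T cell groups, with a log2 ratio of dKO over WT of −0.24 in Foxp3+ cells and 0.25 in conventional T cells, and each interval excluded 0. The target gene Cd83 also had opposite signs, −0.91 and 1.29, with each interval clear of 0. For Il10+ over other Foxp3+ cells, 4 members had opposite signs in the libraries with intervals that excluded 0: Nfkb1 (0.56 under the WT label and −0.14 under the dKO label), Rel (0.67 and −0.33), Nfkbia (0.72 and −0.25) and Nfkbiz (1.01 and −0.26). There were 29 Il10+ Foxp3+ cells under the WT label and 635 under the dKO label. Of all genes, 22.3% were at least 1.5-fold higher and 17.9% lower in them under the WT label. Under the dKO label these shares were 1.18% and 1.1%. No share of all genes is given for opposite signs, so the count of 4 has no background beside it. These differences were not tested, since each genotype has 1 library.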

How the results depend on the processing

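No paired analysis was possible because each genotype has 1 library. Of 10 values of members past 1.5-fold in the Foxp3+ and conventional comparisons (dKO over WT in each, and Foxp3+ over conventional in each library), all 10 kept their sign under each of the 12 alternatives that can move a ratio. The other 3 of 15 change only the limit or the genes held against it. Of the 15, 2 were added after the data were seen (shared barcodes, and cells with 1000 to 3000 UMIs). The 10 values were picked for passing the fold, so a kept sign says little about their size. Of all 40 ratios of members in these comparisons, 22 left their own interval with 1 cell per clonotype. With the wider gate 16 did, and with 1000 to 3000 UMIs 11. Under each other alternative at most 8 did. Counts of members past the limit moved as follows, and except where the construction shows it (the stricter limit, fewer cells) the cause was not tested. For Foxp3+ over conventional in the library labelled dKO, the 2 higher members became 0 with TMM scaling, 0 with the total without receptor, mitochondrial and ribosomal genes, and 1 each with at least 500 genes and under 3% mitochondrial counts, with a TRB contig, without shared barcodes and with the wider gate (Foxp3 or at least 2 Treg genes). For dKO over WT in Foxp3+ cells, the 1 lower member became 0 with a TRB contig, 0 with 1 cell per clonotype, 0 with the wider gate and 2 with 1000 to 3000 UMIs, and the 0 higher became 1 with the wider gate. In conventional T cells the 1 higher became 3 with 1 cell per clonotype. For the pDC gate over conventional, the higher count of the library labelled WT, 1, became 2 with TMM scaling, 1 cell per clonotype and the wider gate, its lower count, 3, became 5 with the smaller total, and the higher count of the library labelled dKO, 0, became 1 with TMM scaling and the wider gate. The lower count of the library labelled dKO, 3, reached 4 at the highest. For Il1rl1+ over other Foxp3+ cells, the 4 of the library labelled WT became 1 with a TRB contig and 1 with 1 cell per clonotype, and the 5 of the library labelled dKO became 3 with 1 cell per clonotype. At the highest these Il1rl1+ counts were 5 (library labelled WT) and 6 (library labelled dKO). At 1.5-fold under the WT label, the 6 higher members of Foxp3+ over conventional ran from 4 (wider gate) to 8 (1 cell per clonotype, which leaves 166 Foxp3+ cells). The 8 of Ifng+ over naive-like ran from 6 (smaller total) to 10 (1 cell per clonotype), and under the dKO label its 7 fell to 6 at the lowest. No share of all genes is given under the alternatives, so the counts in this section cannot be set against one. At a limit of 2-fold, the higher counts were 0 (dKO over WT, conventional), 2 and 0 (Foxp3+ over conventional, libraries labelled WT and dKO), 0 (pDC, library labelled WT), 0 and 1 (Il1rl1+) and 6 and 4 (Ifng+ over naive-like, libraries labelled WT and dKO). The lower count of dKO over WT in Foxp3+ cells was 0, and the lower counts of the pDC gate were 2 and 2. No share of all genes is given at 2-fold, so these counts have no background beside them. The median correlation of members was 0.605 over T cell classes only.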
